A study of Arabidopsis thaliana with 8 samples.

Results

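The warmth response of 4-day-old Arabidopsis thaliana seedlings was read from 4 RNA sequencing libraries, chosen by their labels from the 8 in all. They form 2 matched pairs, each of a 27 °C library and a 22 °C library of the same hybrid. The Col hybrid is C24xCol, a cross of the accessions C24 and Col, and the pif4 hybrid is C24xpif4-101, which carries a mutant allele of the transcription factor gene PIF4. A hybrid of this kind would still hold the PIF4 copy of C24, so it is not a full loss of the gene. All 4 libraries came from whole seedlings that were stratified for 3 days at 4 °C in the dark, germinated for 1 day at 22 °C under 8 h of light and 16 h of dark, and then held at 22 °C or 27 °C. Seedlings were pooled, about 30 mg per extraction, and collected at ZT0, the start of the light period. Each condition had 1 library, so p-values measure only how far the hybrids' responses differed from each other, at day 4 and in the matching 4 libraries of day 7. A real difference between the hybrids in their response adds to that spread.

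Moderate warmth makes Arabidopsis seedlings stretch their hypocotyls and lift their leaves, a programme known as thermomorphogenesis. Phytochrome B, a light receptor, loses its active form faster when warm, which frees PIF4 and related basic helix-loop-helix factors to switch on auxin synthesis, auxin response and cell wall genes. A seedling this young is also still leaving the seed behind: storage proteins and oil are used up, late embryogenesis abundant (LEA) transcripts that protect the dry embryo decline, and the photosynthetic apparatus is being built.

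The libraries differed in depth. The Col hybrid at 22 °C held 1664128 counts, the fewest of the series, against 9128810 at 27 °C, and the pif4 hybrid held 8880735 and 20898400. A gene with 0 counts in the shallowest library could still have reached 2.14 CPM (library-scaled counts with TMM factors; the level of 3 counts) there, a limit that covers counting error only. That library also stood apart on the first principal component of the 4, which took 63.5% of the variance, and the hybrids at 22 °C parted on the second, with 25.9%. Warmth and depth were therefore not separate, since the 27 °C library was the deeper one in both pairs. Root markers and light harvesting genes were both read, as whole seedlings should give. Of these, 20 of 21 root markers and 38 of 38 light harvesting genes passed the filter on low counts. That filter needs only 2 of the 4 libraries. PIF4 itself stood at 97.1 (Col hybrid) and 79.3 CPM (pif4 hybrid) at 22 °C, and at 175 and 185 CPM at 27 °C, so its transcript level did not mark the mutant allele.

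At 27 °C, 1683 of 19881 genes rose (8.47%) and 1963 fell (9.87%; edgeR quasi-likelihood test over both pairs, Benjamini-Hochberg adjusted p under 0.05, the meaning of "called" throughout). Of these, 464 rose and 449 fell at least 2-fold. Among called genes that averaged 10 CPM or more on day 4 and had the same sign in both pairs, the steepest rises were CRA1, AT3G17520, LEA7, AT1G19530, AT2G15880, RD29B, AT5G02540 and THA1. The steepest falls were CYP82C4, the receptor-like kinase gene AT1G29720 (−4.31), IRT1, FRO2 and MAM3. AT2G15880, annotated as a leucine-rich repeat gene, and AT5G02540, as a Rossmann-fold gene, rose by 3.26 and 3.01. Of the 3646 called genes, 3555 had the same sign in both pairs and 91 did not. Over all genes tested, 64.5% had the same sign in both pairs. The test takes its error from the disagreement of the pairs, so a call favours genes that agree. Across 12951 genes that averaged 10 CPM or more on day 4, the log2 ratios of the hybrids correlated with Pearson's r = 0.618 and Spearman's rho = 0.523. These points are genes and not independent replicates. Counts of called genes depended on the pif4 pair: without its 22 °C library 417 genes rose and 626 fell, and without its 27 °C library 401 and 630. The hybrids' log2 ratios differed by a median of 0.279 on day 4 and 0.159 on day 7 over those 12951 genes, so the shared estimate of spread is lower than day 4 alone would give. With the 4 day 4 libraries alone, 1236 rose and 1705 fell. A fit without 1 day 4 library, here and below, takes its change from the other pair alone and its error from day 7. Its counts of called genes therefore do not test whether the day 4 pairs agree.

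**Figure D1:**
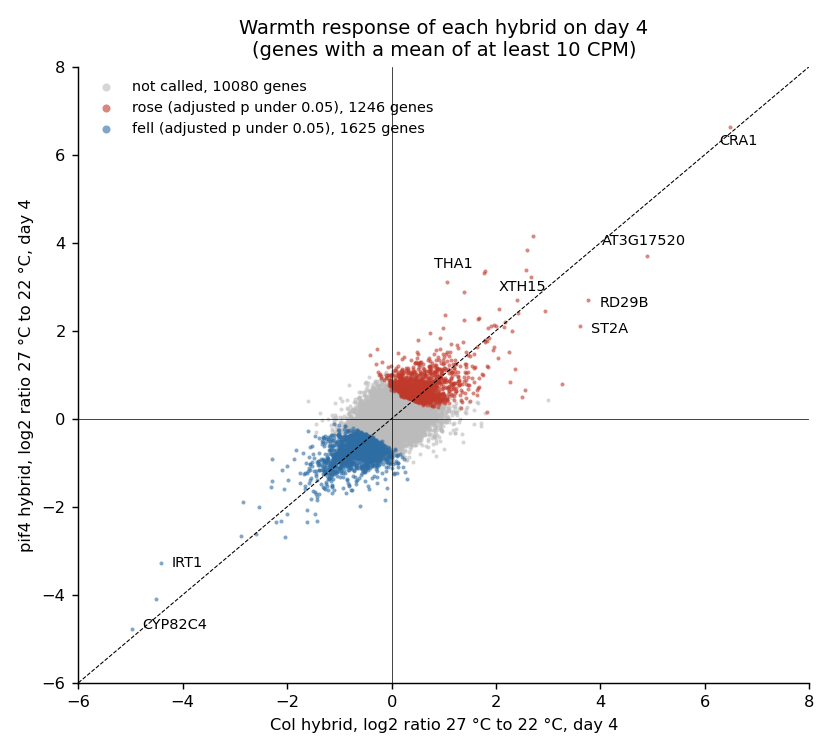
Each point is a gene averaging 10 CPM or more on day 4; the x axis gives the log2 ratio of 27 °C to 22 °C on day 4 in the Col hybrid and the y axis that in the pif4 hybrid, with the dashed line at equal ratios. Most called genes lie in the upper right and lower left, though 60 of those plotted had opposite signs in the pairs; CRA1 stands at 6.48 and 6.63 and CYP82C4 at −4.98 and −4.78.

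Taken 1 at a time, the pairs did not contradict each other at a 2-fold size. At any size, 66.8% of the genes that averaged 10 CPM or more on day 4 had the same sign in both. Among 12949 genes with at least 30 counts in either library of each pair, 83 were at least 2-fold higher in both pairs and 140 at least 2-fold lower in both. None, 0 of 12949, was 2-fold higher in 1 pair and 2-fold lower in the other, and this count was also 0 with a prior count of 0.5 or 5 in place of 2. The pairs have no replicates, so these are descriptions with no test.

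Seed genes gave the highest median of the 30 lists examined, and their rise was that of a few members. Of 15 genes for seed storage and oil body proteins, 6 passed the filter on low counts, and 5 of those rose with 0 falling, against 8.47% of all genes. All 5 passed only through the warm libraries, so neither this count, the list's median nor any call among them carries weight of its own. CRA1, a cruciferin of the 12S storage globulins, was read at 1 count in the Col hybrid and 1 count in the pif4 hybrid at 22 °C, and at 712 and 585 counts at 27 °C. In CPM this was 0.714 and 0.116 at 22 °C against 76.7 and 25.7 at 27 °C, so both warm libraries stood far above both cool ones. The Col pair's log2 ratio was 6.48 with a 95% interval of 4.26 to 12.05, and the pif4 pair's was 6.63 with an interval of 5.31 to 13.1, intervals that cover counting error only. The fitted log2 fold change was 7.29 (SE 0.40, adjusted p = 6.85e-09, edgeR). CRA1 was 1 of the 5, so neither this p nor the gap between warm and cool libraries carries weight of its own.

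OLEO2, an oleosin that coats oil bodies, was read at 0 counts (Col hybrid) and 3 counts (pif4 hybrid) at 22 °C, and at 248 and 98 counts at 27 °C. In the Col hybrid it was at least 12.5-fold higher at 27 °C, measured against the level of 3 counts in the 22 °C library. PER1, a peroxiredoxin of the seed, went from 0 counts to 262 in the Col hybrid, at least 13.2-fold, and from 4 to 133 in the pif4 hybrid. OLEO1 and PAP85, a vicilin-type storage protein gene, were also called, with 43 and 12 counts in the warm Col library and 23 and 36 in the warm pif4 library. The other defining storage genes were at or near 0 in all 4 libraries. CRU2, a sister of CRA1, had 0 and 1 counts in the warm libraries, CRU3 had 2 and 5, and SESA1 to SESA4, the 2S albumins, had 0 in both. The summed level of the list was 3.569 CPM in the Col hybrid and 3.599 CPM in the pif4 hybrid at 22 °C, and 138 and 39.95 CPM at 27 °C.

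**Figure D2:**
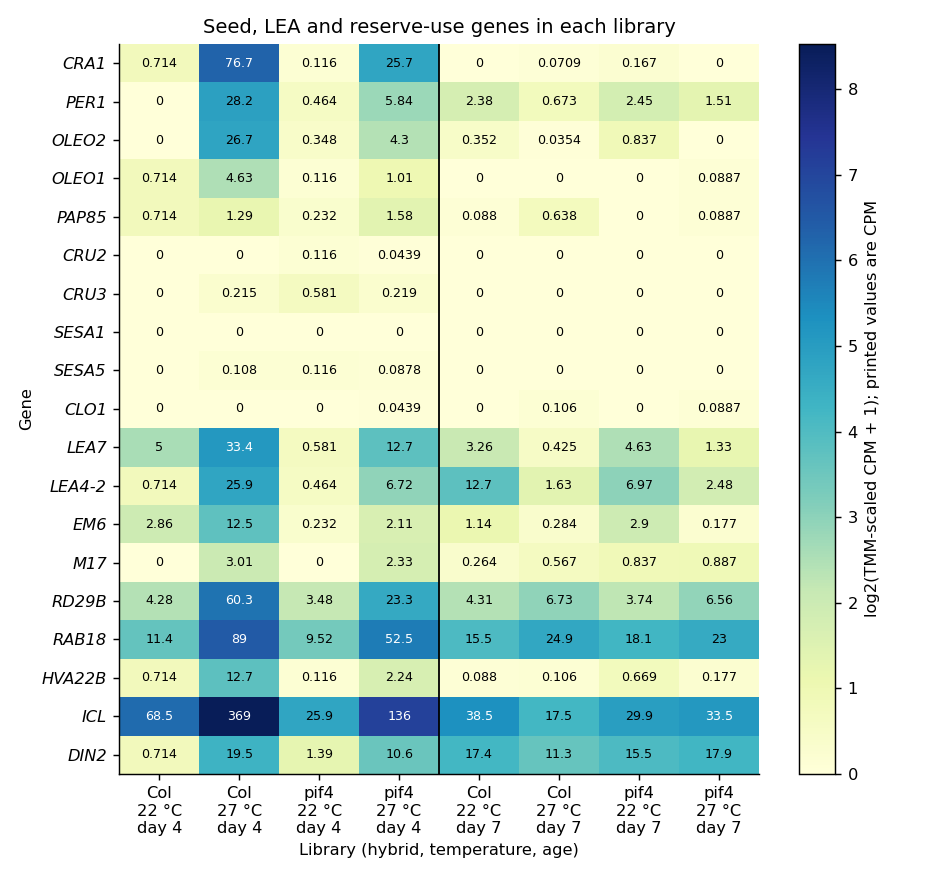
Rows are seed, LEA, abscisic acid and reserve-use genes, columns are the 8 libraries with day 4 left of the black line, colour is log2(TMM-scaled CPM + 1) and printed values are CPM. CRA1, PER1, OLEO2 and LEA7 are high only in the 27 °C day 4 libraries among those shown, whereas CRU2 and SESA1 are at or near 0 in all 8.

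Of 16 tested LEA genes 10 rose and 1 fell, against 8.47% and 9.87% of all genes. Their median log2 fold change was 1.82, against 0.01 over all genes tested. LEA4-2, M17 and ECP63 passed the filter only through the warm libraries, so they had to rise; of the other 13 members 7 rose. RAB18, a dehydrin that abscisic acid induces, went from 11.4 CPM to 89.0 CPM in the Col hybrid and from 9.52 to 52.5 CPM in the pif4 hybrid. RD29B, another abscisic acid target, went from 4.28 to 60.3 CPM and from 3.48 to 23.3 CPM. LEA7 went from 4.997 to 33.4 CPM and from 0.581 to 12.7 CPM. In these 3 genes, named for their small p, the warm libraries did not overlap the cool ones, which carries no weight of its own. Their log2 fold changes were 2.60 (SE 0.17), 3.02 (SE 0.23) and 3.67 (SE 0.35), with adjusted p of 6.13e-08, 2.59e-07 and 3.69e-06 (edgeR). AT3G17520, annotated as a LEA family protein, was among the genes that rose most, from 1.43 to 46.4 CPM and from 0.697 to 10.8 CPM (4.299, SE 0.33). LEA4-2 rose by 4.22 and EM6, an early methionine-labelled protein of the seed, by 2.54. Members better known from cold and drought than from the seed moved little: RD29A gave 0.07, COR47 0.35 and ERD10 0.39, none of them called, and XERO2 fell by 0.54. Leaving out 1 library left 8 to 9 LEA genes called up, and thinning every library to the shallowest left 4. Among the genes named here, RAB18, LEA7, OLEO1, OLEO2, AIM1, THA1, BCAT2, MCCA, DIN6, XTH15, CKX5, BBX25, PIF6, PIF7, CPD, BZR1, EBF2, HSP101, MBF1C, HSFA1B, RVE1, LUX, SPA3, FLC, IMA3, FER1, CASP1, EXPA7, BCAT4, LHCA5, HEME1, CAO, CHLI1, MCM7 and AT2G39980 overlap a neighbouring gene, so with the strand setting unstated their counts may include its reads.

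Genes of the abscisic acid list rose in 6 of 16 tested members, against 8.47% of all genes. Of these, 2 were RAB18 and RD29B again, and 0 members fell. HVA22B, 1 of the 6, passed the filter only through the warm libraries, so its rise carries no weight of its own. The phosphatase gene HAI1, a negative regulator of the hormone's signalling, rose by 1.68, and HVA22B by 4.15 from 0.714 to 12.7 CPM and from 0.116 to 2.24 CPM. ABI3, a transcription factor of seed maturation, rose by 1.09 (adjusted p = 0.042), at 4.997 and 5.38 CPM in the Col hybrid and 2.32 and 6.19 CPM in the pif4 hybrid. Its rise thus came from the pif4 pair.

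The 250 bases before the annotated start of CRA1, LEA7, RD29B and RAB18 are shown because these genes carry the seed-type response, read from RefSeq's TAIR10.1 genome on each gene's own strand. Capitals mark ACGTG, the core of the abscisic acid response element, and CATGCA, the RY element of seed genes, on either strand.
CRA1: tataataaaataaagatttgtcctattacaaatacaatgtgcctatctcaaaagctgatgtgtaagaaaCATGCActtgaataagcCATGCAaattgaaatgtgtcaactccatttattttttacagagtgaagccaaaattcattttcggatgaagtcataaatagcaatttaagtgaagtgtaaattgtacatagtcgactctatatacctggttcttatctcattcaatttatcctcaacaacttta
LEA7: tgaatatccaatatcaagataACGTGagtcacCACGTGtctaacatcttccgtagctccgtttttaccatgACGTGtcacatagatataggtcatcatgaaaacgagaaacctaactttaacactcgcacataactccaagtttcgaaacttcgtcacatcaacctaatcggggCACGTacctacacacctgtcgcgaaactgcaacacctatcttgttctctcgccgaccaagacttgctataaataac
RD29B: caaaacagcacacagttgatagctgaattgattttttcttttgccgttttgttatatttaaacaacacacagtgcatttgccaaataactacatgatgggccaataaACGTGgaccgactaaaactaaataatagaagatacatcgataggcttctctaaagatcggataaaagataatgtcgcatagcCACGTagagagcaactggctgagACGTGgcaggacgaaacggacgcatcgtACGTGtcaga
RAB18: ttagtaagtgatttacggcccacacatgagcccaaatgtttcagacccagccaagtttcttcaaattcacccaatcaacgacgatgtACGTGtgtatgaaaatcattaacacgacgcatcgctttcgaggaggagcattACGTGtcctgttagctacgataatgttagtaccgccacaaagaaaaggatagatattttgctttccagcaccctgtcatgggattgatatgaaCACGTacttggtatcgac
The windows lie at chr5:17758337-17758586 for CRA1 and chr5:26519448-26519697 for RAB18 on the minus strand, and at chr1:19619474-19619723 for LEA7 and chr5:21236771-21237020 for RD29B on the plus strand. CRA1 held 2 RY matches and 0 of ACGTG, whereas LEA7 held 5 matches of ACGTG, RD29B 4 and RAB18 3, with 0 RY matches each. A CACGTG, as in LEA7, counts as 2 matches of ACGTG, 1 on each strand. Among windows of the same length before tested genes, 7.67% held CATGCA and 23.9% held ACGTG. The shares were 14.8% and 34.6% for the 459 genes with a window that rose at least 2-fold, and 10.8% and 31.7% for the 445 that fell at least 2-fold. These are matches of letters and not binding sites.

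Transcripts of 2 enzymes of the glyoxylate cycle, which turns seed oil into sugar, rose. ICL, isocitrate lyase, went from 68.5 to 369 CPM in the Col hybrid and from 25.9 to 136 CPM in the pif4 hybrid. Both pairs gave the same size, log2 ratios of 2.43 (95% counting interval 2.14 to 2.74) and 2.39 (2.201 to 2.600), and the fit gave 2.41 (SE 0.22, adjusted p = 2.51e-06, edgeR). MLS, malate synthase, rose by 0.97 (SE 0.14), from 31.4 to 56.0 CPM and from 16.7 to 34.6 CPM. Of 20 genes of oil breakdown 5 rose and 0 fell, and the other 3, LACS7, AIM1 and PXA1, which act in fatty acid activation, β-oxidation and import into the peroxisome, rose by 0.54, 0.49 and 0.50. That is against 8.47% of all genes, and the list's median was 0.22. The count was 3 to 6 without 1 library and 2 with DESeq2 or with thinning; LACS7 lost its call with DESeq2, with thinning and without the cool Col library.

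Sugar starvation genes and those that degrade branched-chain amino acids rose in 10 of 18 tested members and fell in 0. Their median was 0.75, and 8.47% of all genes rose. DIN2, a β-glucosidase induced in darkness, went from 0.714 to 19.5 CPM in the Col hybrid and from 1.39 to 10.6 CPM in the pif4 hybrid (3.21, SE 0.38). THA1, threonine aldolase, went from 14.3 to 49.5 CPM and from 5.22 to 54.7 CPM (2.93, SE 0.24), and BCAT2, a branched-chain transaminase, from 34.3 to 89.5 CPM and from 7.90 to 59.0 CPM (2.28, SE 0.33). IVD, MCCA and MCCB, enzymes of leucine breakdown, rose by 0.87, 0.88 and 1.00. DIN6, asparagine synthetase 1, was close to the threshold at 0.70 (adjusted p = 0.045, edgeR).

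The shade and elongation genes, most of them known targets of PIF factors, were the list with the most called members going up. There 17 of 24 rose, against 8.47% of all genes, and 1 fell, with a median of 1.09. XTH15, a xyloglucan endotransglucosylase that remodels the cell wall, stood at 74.2 CPM at 22 °C and 393 CPM at 27 °C in the Col hybrid, and at 30.3 and 198 CPM in the pif4 hybrid (2.57, SE 0.19, adjusted p = 2.59e-07, edgeR). IAA19, an auxin response repressor of hypocotyl growth, stood at 12.1 and 48.9 CPM and at 3.72 and 16.4 CPM (2.09, SE 0.19). In both genes the 2 warm libraries lay above the 2 cool ones, and at each temperature the pif4 hybrid had the lower level. Both were among the list's genes of smallest p, so their separation by temperature carries no weight of its own. ST2A, a jasmonate sulfotransferase, rose by more in the Col hybrid, from 20.7 to 254 CPM, than in the pif4 hybrid, from 7.90 to 34.3 CPM. Its log2 ratio was 3.61 in the Col pair (95% counting interval 3.093 to 4.2004) and 2.1001 in the pif4 pair (1.76 to 2.50).
These intervals do not overlap, but they leave out the variation between seedling pools, which 1 library per condition cannot give. RTFL21, CKX5, FHL and HFR1 rose by 4.50, 2.43, 2.11 and 1.45; FHL carries phytochrome A into the nucleus and HFR1 restrains PIF factors. RTFL21 rested on 1 and 3 counts at 22 °C against 153 and 184 at 27 °C. It passed the filter on low counts only through the warm libraries, so its rise carries no weight of its own. BBX25, a B-box factor, was the member that fell (−1.12). Leaving out 1 library left 12 to 16 members called up.

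In the PIF family itself 4 of 8 genes rose and 1 fell, against 8.47% and 9.87% of all genes. PIF4 rose by 1.06 (SE 0.15, adjusted p = 1.97e-04, edgeR), with log2 ratios of 0.85 in the Col pair and 1.22 in the pif4 pair, and PIF6, PIF3 and the related PIL1 rose by 0.90, 0.57 and 1.13. PIF8 fell by 1.14 (SE 0.15), from 43.5 to 16.4 CPM and from 52.9 to 26.2 CPM. PIF7, a partner of PIF4 in warmth, gave −0.35 (adjusted p = 0.236) and PIF5 gave 0.09. Without a library of the pif4 pair only 1 member of the family was called up.

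Auxin genes divided between response and synthesis. Early response genes rose in 11 of 23 tested members and fell in 1, IAA17 (−0.74), against 8.47% and 9.87% of all genes. Their median was 0.49. GH3.5, which joins auxin to amino acids, went from 59.96 to 138 CPM and from 55.3 to 132 CPM (1.24, SE 0.15), and the growth-linked SAUR22, SAUR23 and SAUR19 rose by 1.25, 0.94 and 1.03. These SAUR genes are close tandem copies, so reads may be shared among them. IAA29 stood at 63.5 CPM in the Col hybrid and 16.0 CPM in the pif4 hybrid at 22 °C, and at 90.11 and 55.8 CPM at 27 °C. Its log2 ratio was 0.50 in the Col pair and 1.79 in the pif4 pair, and the warm pif4 library lay below the cool Col library. Of 9 synthesis genes, YUC8, the flavin monooxygenase that PIF4 is known to induce, rose by 1.55 (4.997 to 20.9 CPM and 5.11 to 13.6 CPM). TAA1, the aminotransferase of the step before it, fell by 0.83, from 19.3 to 8.83 CPM and from 15.8 to 9.61 CPM, and the other 7 were not called. Without a library of the pif4 pair 3 or 4 early response genes stayed called up.

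The window before IAA19, at chr3:5263751-5264000 on the plus strand of TAIR10.1, is shown because it bears CACGTG, the G-box that PIF factors are known to bind, in capitals.
IAA19: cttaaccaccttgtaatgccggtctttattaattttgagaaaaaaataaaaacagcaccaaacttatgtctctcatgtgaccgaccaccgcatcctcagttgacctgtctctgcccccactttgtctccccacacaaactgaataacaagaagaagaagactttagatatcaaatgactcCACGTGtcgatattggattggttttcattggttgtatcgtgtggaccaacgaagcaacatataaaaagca
The window of XTH15 held 0 matches of CACGTG. Of the windows of tested genes 7.42% held it, against 16.1% for genes that rose at least 2-fold and 9.44% for genes that fell at least 2-fold, again as matches of letters.

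Other growth hormones gave few called genes, and 8.47% of all genes rose. Gibberellin genes rose in 3 of 16 members, the receptor gene GID1A (0.55), the DELLA repressor GAI (0.77) and GA20OX1 (2.24). GA20OX1, with 0 and 3 counts at 22 °C and 22 and 29 at 27 °C, passed the filter on low counts only through the warm libraries. Its rise thus carries no weight of its own. Brassinosteroid genes rose in 2 of 16, the synthesis enzyme CPD (0.67) and the transcription factor BZR1 (0.48). Ethylene genes rose in 3 of 17, the synthase ACS8 (2.98), the receptor ERS2 (0.70) and the F-box gene EBF2 (0.57). None of these 3 lists had a member that fell, and without a library of the pif4 pair 0 of their members were called.

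Heat shock genes rose in 8 of 19 tested members and fell in 0, against 8.47% of all genes that rose. HSP70-4, a cytosolic chaperone, stood at 21.4 and 25.4 CPM at 22 °C in the Col and pif4 hybrids and at 107 and 101 CPM at 27 °C, so the hybrids nearly coincided at each temperature. Its log2 fold change was 2.09 (SE 0.16, adjusted p = 3.57e-07, edgeR). HSP90.1 went from 15.7 to 59.4 CPM and from 13.0 to 56.3 CPM (2.06, SE 0.16), and the co-chaperone gene ROF2 rose by 1.77. HSP101, MBF1C and HSFB2A rose by 0.96, 0.99 and 1.03. The small heat shock genes that mark acute heat were low: HSP17.6C had 10 and 22 counts at 27 °C, HSP21 had 1 and 0, and HSP18.2 was not called. Of the master regulators, HSFA1A, HSFA1B and HSFA1D gave 0.65, 0.55 and 0.03 and were not called, and HSFA2, with 9 and 18 counts at 27 °C, did not pass the filter. The window of 250 bases before HSP70-4 held 0 matches of GAANNTTC, a short form of the heat shock element, which 9.15% of the windows of tested genes held. Leaving out 1 library left 5 to 11 members called up.

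Clock genes moved in both directions. Of genes that peak near dawn, 4 fell at ZT0: LHY, one of the dawn-phased MYB factors, went from 976 to 487 CPM and from 931 to 549 CPM (−0.88, SE 0.20), and RVE2, RVE1 and RVE8 fell by 0.75, 0.57 and 0.50. CCA1, the partner of LHY, stood at 542 and 348 CPM and at 538 and 445 CPM, which was not called (−0.45, adjusted p = 0.092, edgeR), although the 2 warm libraries lay below the 2 cool ones. Several genes that peak later rose: PRR7, a repressor of the dawn genes, went from 15.7 to 70.7 CPM and from 21.0 to 89.1 CPM (2.11, SE 0.17), and GI, LUX, TOC1 and PRR9 rose by 1.03, 0.85, 0.69 and 0.92. RVE7, another gene of this MYB family, rose by 0.86. In all, 9 of 27 tested members rose and 4 fell, against 8.47% and 9.87% of all genes. All samples were taken at a single time of day. Without a library of the pif4 pair 3 rose and 0 fell.

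Among light receptors and their signalling, 3 of 24 genes rose and 2 fell, shares near the 8.47% and 9.87% of all genes, and 1 to 6 rose without 1 library. PHYA went from 555 to 924 CPM and from 316 to 780 CPM (1.02), PHOT1 rose by 0.71 and HEC1, whose protein binds PIF factors, by 1.84. HYH, a bZIP factor of light responses, fell by 1.21 and SPA3, of the complex that degrades such factors, by 0.79. FLC, the floral repressor that acts in vernalization, did not change detectably (−0.16, SE 0.15, adjusted p = 0.487), and 1 of 18 flowering genes was called, SNZ (−1.17). Of 11 cold response genes 2 rose, COR413IM1 by 2.21 and RAV1 by 0.57.

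Iron uptake genes were prominent among the falls. Of 28 tested members 17 fell and 0 rose, with a median of −0.78, against 9.87% of all genes called down. CYP82C4, a P450 that makes an iron-mobilising coumarin, fell from 21.4 to 0.538 CPM in the Col hybrid and from 38.8 to 1.27 CPM in the pif4 hybrid (−4.99, SE 0.24, adjusted p = 2.17e-09, edgeR). IRT1, the main root iron transporter, fell from 88.5 to 3.98 CPM and from 169 to 17.3 CPM (−3.62, SE 0.20), and FRO2, the ferric reductase that feeds it, from 53.5 to 7.11 CPM and from 84.8 to 13.3 CPM (−2.74, SE 0.17). Warm and cool libraries of these 3 genes did not overlap, which carries no weight of its own in genes named for their small p. NAS2 and NAS4, nicotianamine synthases, gave −4.05 and −1.204, and the signalling peptide genes IMA1, IMA2 and IMA3 gave −1.57, −1.65 and −3.44, all called, the peptides on few counts. The regulator FIT fell by 0.77, but only in the pif4 pair, which went from 38.2 to 17.8 CPM while the Col pair stood at 16.4 and 19.2 CPM. FER3, a ferritin, fell by 1.06, whereas FER1, which stores iron when it is plentiful, gave 0.35 (adjusted p = 0.131). Without a library of the pif4 pair 10 members stayed called down, and thinning to the shallowest library left 8.

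These root-expressed genes stood beside a smaller shift of root markers. Of 20 tested root markers 4 fell and 0 rose, against 9.87% of all genes that fell, with a median of −0.41. The count was 2 to 5 without 1 library and 1 with DESeq2. The summed level was 403 CPM in the Col hybrid and 329 CPM in the pif4 hybrid at 22 °C, and 284 and 263 CPM at 27 °C. CASP1, which builds the Casparian strip of the endodermis, fell by 0.74 (47.8 to 24.7 CPM and 25.9 to 16.99 CPM), and the root hair genes EXPA7, PRP3 and RSL4 by 1.04, 0.74 and 1.14. EXPA7 and PRP3 lost their calls with DESeq2 and in fits without 1 library. SHR and SCR, which pattern the root's ground tissue, gave −0.23 and −0.26 and were not called. In bulk seedlings, fewer root cells and less RNA per root cell cannot be told apart, and the part of root share in the iron genes was not tested.

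Aliphatic glucosinolate genes, which make defence compounds from methionine, fell in 14 of 24 tested members and rose in 0. Their median was −0.79, and 9.87% of all genes fell. MAM3, which lengthens the methionine side chain, fell from 23.56 to 3.77 CPM and from 41.6 to 6.63 CPM (−2.65, SE 0.18, adjusted p = 1.11e-07, edgeR). BCAT4, of the first step, fell by 2.01 and the plastid transporter gene BASS5 by 1.43, and the regulators MYB28 and MYB29 by 0.78 and 1.43. MAM1, a tandem neighbour of MAM3, gave −0.19 and was not called. Without a library of the pif4 pair 5 members stayed called down.

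Light harvesting and photosystem genes were lower in both hybrids, in 38 of 38 members, against 6161 of all 19881 genes tested. Of the 38, 29 were called down, against 9.87% of all genes, and the list's median was −0.98. LHCA5 and LHCA6, of photosystem I, fell by 0.91 and 0.86 and LHCB4.3, of photosystem II, by 1.17. LHCA6 went from 203 to 114 CPM and from 196 to 106 CPM. These are among the most abundant transcripts of a seedling, and 33 of the 38 were among the 100 most abundant genes. Those 100 genes had a median log2 ratio of −0.88 in the Col pair and −0.77 in the pif4 pair on day 4, and of −0.78 and 0.02 on day 7. The 67 of them outside the list gave −0.61, −0.56, −0.58 and 0.02. The light harvesting medians in the same 4 pairs were −1.05, −0.91, −0.93 and −0.0024, while the log2 ratios of total counts were 2.46, 1.23, 1.12 and −0.69. The part that depth or library preparation may have in this fall was not tested. The number called varied with the fit, at 4 to 5 without 1 library, 18 with offsets fitted to abundance and 38 with the day 4 libraries alone. LHC genes are near-identical copies in part, so reads may be shared among them.

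**Figure D3:**
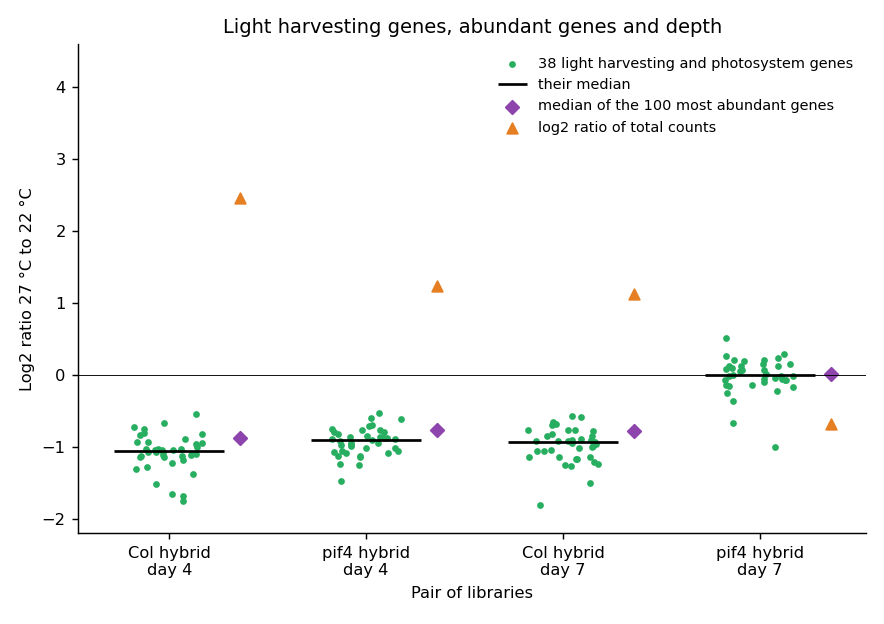
Each green point is 1 of 38 light harvesting and photosystem genes, given as the log2 ratio of 27 °C to 22 °C in each of 4 pairs of libraries, with the black line at their median. Purple diamonds are medians of the 100 most abundant genes and orange triangles log2 ratios of total counts; the pif4 hybrid on day 7, with fewer counts at 27 °C, is the pair near 0.

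Chlorophyll synthesis genes fell in 16 of 22 members and rose in 0, with a median of −0.76, against 9.87% of all genes that fell. HEME1 and HEME2, which act in the porphyrin steps, went from 259 to 109 CPM and from 254 to 126 CPM, and from 245 to 112 CPM and from 244 to 113 CPM. CAO, chlorophyllide a oxygenase, fell by 1.12 and CHLI1, a subunit of magnesium chelatase, by 1.16. In this list the day 7 pairs gave medians of −0.85 and −0.43, so the pif4 pair of day 7 was below 0 here and not only the Col pair. Leaving out 1 library left 10 members called down.

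Genes of DNA replication fell in 10 of 24 members and rose in 0, with a median of −0.55. PCNA1, the sliding clamp, gave log2 ratios of −0.44 in the Col pair and −1.61 in the pif4 pair, and MCM7, of the helicase, −0.23 and −0.85. The list's medians were −0.21 in the Col pair and −0.65 in the pif4 pair, and without either library of the pif4 pair 0 members were called. Mitosis genes fell in 4 of 25 and rose in 1, with CYCB1;3 at −1.19, against 9.87% and 8.47% of all genes; 0 to 8 fell without 1 library and 0 with thinning. The DESeq2 test called 1 gene down in each of these 2 lists.

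Wall, pigment and defence lists held changes in both directions. Expansins and wall loosening enzymes rose in 5 of 26 and fell in 7: EXPA16 rose by 2.105 (24.3 to 78.3 CPM and 16.4 to 79.9 CPM) and XTH24 by 1.35, while EXPA1, a leaf and guard cell expansin, fell by 1.44 (165 to 66.2 CPM and 161 to 55.0 CPM). Jasmonate genes fell in 7 of 20 and rose in 1, the inactivating ST2A. AOC1 and LOX2, which make the hormone, fell by 1.28 and 1.22 and the repressor gene JAZ1 by 0.99. Flavonoid genes fell in 5 of 19, with PAL1 at −0.68, and rose in 1, MYBL2 (0.98), a repressor of anthocyanin synthesis. DFR, the anthocyanin enzyme and 1 of the 5, fell by 3.02 from no more than 2.32 CPM. It passed the filter on low counts only through the cool libraries, so its fall carries no weight of its own. The Col pair held 2 counts of DFR at each temperature. Salicylic acid genes rose in 1 of 10 and fell in 2, stomatal lineage genes fell in 2 of 15, and meristem and leaf regulators in 1 of 24, TCP4 (−0.67). Of all genes 8.47% rose and 9.87% fell. The salicylic acid rise was lost in every fit without 1 library, and the stomatal and meristem falls reached 0 in at least 1 such fit, with DESeq2 and with thinning. Without a library of the pif4 pair 1 jasmonate gene, 2 flavonoid genes and 2 wall genes stayed called down.

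**Figure D4:**
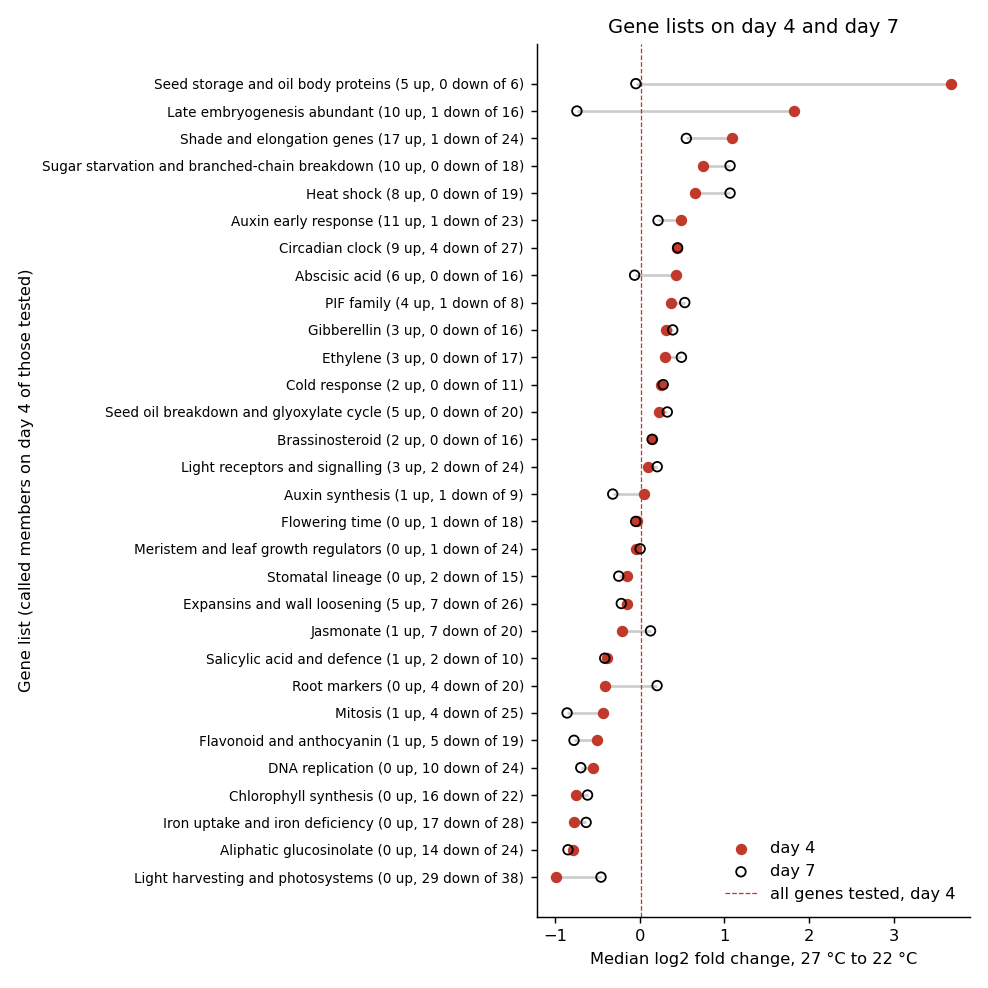
Each row is a gene list with the number of members called up and down on day 4 of those tested; filled red points give the median log2 fold change of 27 °C to 22 °C on day 4, open points that on day 7, and the dashed line the median of all genes tested on day 4. Seed storage and LEA lists stand at 3.67 and 1.82 on day 4 and at −0.04 and −0.74 on day 7, whereas most other lists have both points on the same side. The filter favours the seed storage median of day 4, as 5 of its 6 tested genes passed only through the warm libraries. So did 3 of 16 LEA genes.

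Day 7 gives the same contrast in 4 other libraries of the same hybrids, so no library is shared with day 4. Across the same 12951 genes the log2 fold changes of the ages correlated with Pearson's r = 0.776 and Spearman's rho = 0.792, over genes, which are not independent. Of the genes that rose on day 4, 1320 also rose on day 7, which is 78.4% of the day 4 genes and 31.5% of the day 7 genes. Of those that fell, 1599 fell at both ages, 81.5% and 36.9%. Of all 19881 genes tested, 4188 rose and 4331 fell on day 7. The ages share 1 estimate of spread per gene, so calls at both ages are not independent. The difference between the ages was called for 166 genes, with the day 4 response above that of day 7 in 93 (0.468%) and below it in 73 (0.367%), out of 2201 at an unadjusted p under 0.05. Of the 166, 123 had opposite signs at the ages, and 37 of the 93 and 57 of the 73 averaged 10 CPM or more over the 8 libraries.

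Seed, LEA and abscisic acid genes were among those above day 7, but the filter on low counts used day 4 alone, which favours a higher day 4 response in genes that passed through the warm libraries. Difference calls reached 3 of 6 tested seed storage and oil body genes, 7 of 16 LEA genes and 5 of 16 abscisic acid genes, and each response was higher on day 4. All 3 seed genes, 1 of the 7 LEA genes and 1 of the 5 abscisic acid genes had passed only that way. CRA1 was read at no more than 0.167 CPM in any day 7 library (difference 7.97, SE 1.82, adjusted p = 0.048, edgeR). LEA7 fell on day 7, from 3.26 to 0.425 CPM and from 4.63 to 1.33 CPM (−2.32), against its rise of 3.67 on day 4 (adjusted p of the difference = 3.61e-06). AT3G17520 went the same way, with −2.65 on day 7. ICL stood at 38.5 and 17.5 CPM in the Col hybrid and at 29.9 and 33.5 CPM in the pif4 hybrid on day 7 (−0.49), a difference of 2.90 (adjusted p = 7.82e-05). DIN2, at 10.6 to 19.5 CPM in the warm libraries of both ages, differed through its cool level, which was 0.714 and 1.39 CPM on day 4 and 17.4 and 15.5 CPM on day 7.

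IAA19 also responded more on day 4, 2.09 against 0.48 on day 7 (difference 1.61, SE 0.25, adjusted p = 0.0026, edgeR). Its day 7 levels were 12.4 and 16.8 CPM in the Col hybrid and 9.54 and 13.8 CPM in the pif4 hybrid, so the highest of the 8 values was that of the warm Col library on day 4. XTH15, ST2A, PIF4, HSP70-4 and PRR7 gave no called difference, with day 7 values of 2.07, 3.27, 1.35, 2.53 and 2.22. AT1G29090, a cysteine protease gene, counted as above day 7 although it fell at both ages, with −1.12 on day 4 and −5.83 on day 7 on the log2 scale. Of 22 named genes called for the age difference, 16 lost the call with thinning, among them CRA1, LEA7, RD29B and IAA19, and 13 without the hybrid block, among them CRA1, ICL, RD29B, IAA19 and THA1.

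Of the genes below day 7, those named were THA1, HRGP1, AT3G54580, AT1G05240, AT1G05250, AT2G39980, MAM3, TAA1 and CASP1. THA1 rose by 2.93 on day 4 and by 5.26 on day 7 (difference −2.33, SE 0.44, adjusted p = 0.016, edgeR), since its cool level was 14.3 and 5.22 CPM on day 4 and 1.41 and 0.558 CPM on day 7. HRGP1, a hydroxyproline-rich wall protein, fell by 0.78 on day 4 and rose by 1.39 on day 7, and AT3G54580, an extensin-like gene beside it, gave −0.56 and 1.17. The day 4 change of AT3G54580 was not called (adjusted p = 0.092, edgeR). Its day 4 log2 ratios were −1.37 in the Col pair and 0.13 in the pif4 pair, and those of HRGP1 were −1.61 and −0.27. The peroxidase genes AT1G05240 and AT1G05250 fell by 1.09 and 1.12 on day 4 and rose by 0.86 and 0.68 on day 7. HRGP1 with AT3G54580 and AT1G05240 with AT1G05250 are near-identical or repetitive neighbours whose reads may be shared. Root markers had medians of −0.41 on day 4 and 0.21 on day 7, and 1 of 20, CASP1, was called for the difference (−0.94, adjusted p = 0.031). MAM3 fell more on day 4 (−2.65) than on day 7 (−0.96), from cool levels of 23.56 and 41.6 CPM against 109 and 97.8 CPM.

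**Figure D5:**
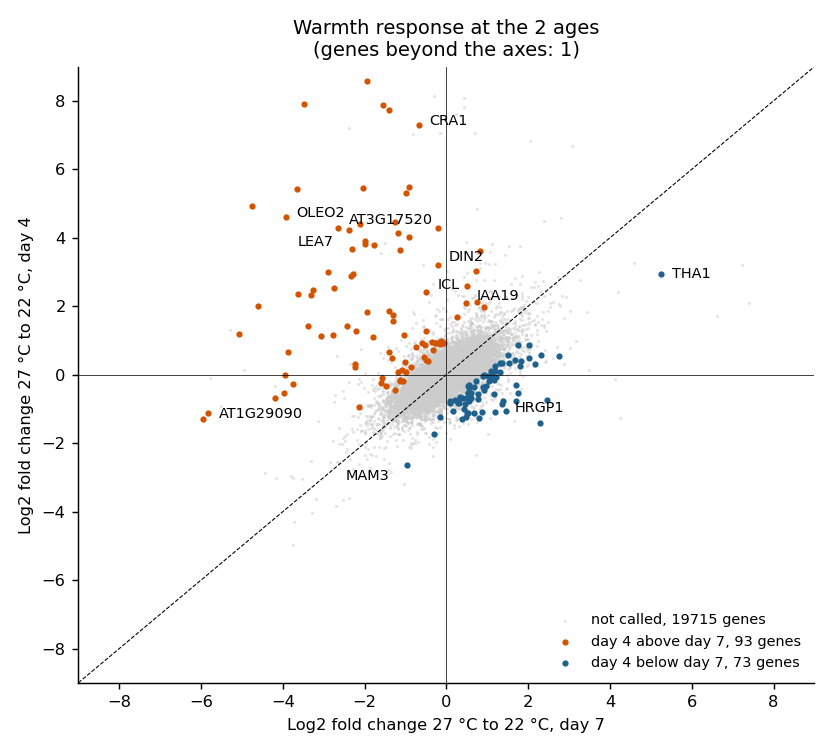
Each point is a tested gene, with its log2 fold change of 27 °C to 22 °C on day 7 on the x axis and on day 4 on the y axis, and the dashed line at equal change. Orange marks the 93 genes whose day 4 response was called above that of day 7, many at the top left with seed and LEA genes, and blue the 73 called below it. The filter on low counts used day 4 alone, which favours a higher day 4 response in genes that passed only through warm libraries.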

How the data were processed

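Seedling RNA of 8 libraries was counted per gene by the authors; the deposited values are raw read counts, not normalised. The submitters' processing notes name TAIR10 as the build and, as tools, HTSeq 0.6.1p1, StringTie 1.3.5, HISAT2, FastQC 0.11.5 and Picard, without roles; the strand setting is not given in the sources used here. Per the labels' protocols, a stranded and an unstranded kit were used, without saying for which library.

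Genes with at least 0.876 CPM (10 counts in the median library) in 2 or more of the 4 day 4 libraries were tested with edgeR 4.0.16 (R 4.3.3): all 8 libraries, TMM scaling, terms for age, hybrid within age and warmth within age, 2 residual degrees of freedom. Fold changes are 27 °C minus 22 °C on the log2 scale, with SE as their size over the square root of F. Ratios of a single pair used TMM-scaled CPM with a prior count of 2 and an exact binomial interval (95%). Of 33602 loci, 32835 matched the TAIR10.1 annotation, which gave symbols and overlaps. Members and the 30 gene lists were chosen with earlier results of these data known. Named genes were the 8 highest and 8 lowest called with 1 sign in both pairs and an average of 10 CPM or more, up to 3 called genes of smallest p per list, 9 genes of the warmth and clock pathways, and the 6 highest and 6 lowest called for the age difference; members outside this rule were named after their values were seen. On simulated counts with known changes for this comparison (19881 genes), 50 of 50 genes at a log2 change of 2 and 40 of 50 at 1 were recovered, and 44 of 50 at −2 and 40 of 50 at −1, with 11 false calls. The simulation gave both hybrids the same change, with the spread estimated over both ages. That spread is lower than day 4 alone would give, so these figures may be too favourable for these libraries. DESeq2 1.42.0 was an alternative. Figures were drawn with matplotlib.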

Additional observations from a re-analysis of the deposited data

Results flagged for a closer look

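Among the genes named, 22 had a warmth response on day 4 that differed from that on day 7 by a test of the difference (edgeR, adjusted p under 0.05). The difference, day 4 minus day 7 on the log2 scale, was 7.97 for CRA1, 8.53 for OLEO2, 5.72 for PER1, 6.95 for AT3G17520, 5.98 for LEA7 and 5.33 for HVA22B. CRA1, OLEO2, PER1 and HVA22B passed the filter on low counts only through the warm day 4 libraries. That filter favours a higher day 4 response, so these 4 differences carry no weight of their own. The difference, on the same scale, is given below for the other genes. It was 2.29 for RD29B, 2.08 for RAB18, 2.90 for ICL, 3.41 for DIN2, 2.79 for AT1G19530, 4.71 for AT1G29090 and 1.61 for IAA19. It was −2.33 for THA1, −1.68 for MAM3, −1.11 for TAA1 and −0.94 for CASP1. It was −2.17 for HRGP1, −1.95 for AT1G05240, −1.80 for AT1G05250, −1.74 for AT2G39980 and −1.73 for AT3G54580.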

How the results depend on the processing

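With 1 library per condition, depth and pool variation limit every value, and the 1664128 counts of the cool Col library set the precision of that pair. No paired analysis by replicate number was possible because each condition has 1 library; the hybrids are the pairs. Counts of genes that rose, fell, stood above day 7 and stood below day 7 were 537, 1048, 42 and 26 with the DESeq2 test and 548, 896, 8 and 9 with libraries thinned to the shallowest. Without the hybrid block 1007 rose, and 27 and 9 differed from day 7. With no low-count filter the age counts were 224 and 235, and with an average of 10 CPM or more 19 and 17. Leaving out 1 library at a time gave 401 to 2712 that rose, 626 to 2670 that fell, 193 to 342 above day 7 and 168 to 623 below it; the cause was not tested. Of 88 named genes called for day 4, 58 stayed called without either pif4 library, 68 with DESeq2 and 66 with thinning, and none reversed. Of the 22 named genes called for the age difference, 16 of 21 with a value lost the call with thinning and 13 without the hybrid block. The call was lost by 6 of 18 with an average of 10 CPM or more, 5 with the DESeq2 test and 1 with DESeq2 size factors. CRA1 lost it with DESeq2 size factors (adjusted p = 0.052), an average of 10 CPM or more (0.113), no hybrid block (0.488) and thinning (0.9998), and 3 genes, AT3G17520, DIN2 and MAM3, under none of these; none reversed. CCA1 gained a call for day 4 warmth with the day 4 libraries alone.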
